A study of Macaca mulatta with 25 samples.

Results

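The genes described are 10 members of the PERK-ATF4-CHOP arm of the integrated stress response, EIF2AK3, ATF4, DDIT3, TRIB3, ATF3, PPP1R15A, CHAC1, ASNS, SESN2 and DDIT4, measured by RNA sequencing in rhesus macaque blastocysts. Each symbol was matched to 1 gene identifier of the count table, and whether further identifiers carried the same symbol was not checked. They make up 10 of the 35395 genes in the table. All 10 were among the 13934 genes with at least 1 CPM (counts scaled to a common library size) in at least 5 of the 25 libraries. The members were chosen by symbol from measured values, since the set was proposed with earlier results of these data in view, namely the lower levels of several of these genes in treated embryos than in controls and the wide spread among the controls. Their levels against controls are therefore given as a description, without a test.

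In this pathway an endoplasmic reticulum kinase, PERK, senses unfolded proteins and phosphorylates the translation factor eIF2, which slows protein synthesis while favouring translation of the transcription factor ATF4. ATF4 switches on genes for amino acid supply and redox balance and, under lasting stress, the transcription factor CHOP, the product of DDIT3. A regulatory subunit of the eIF2 phosphatase, the product of PPP1R15A, then restores protein synthesis. The pathway also answers amino acid shortage and other stresses through sister kinases that act on the same factor. Transcript levels do not show phosphorylation or translation, the steps at which PERK and ATF4 are chiefly controlled.

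Embryos came from the eggs of females enrolled before puberty, at about 2.5 years of age, 10 to a group. T females carried testosterone implants, set to hold circulating testosterone at up to 3 to 5 times the normal level, and ate standard chow (15% fat, 59% carbohydrate, 26% protein). WSD females ate an obesogenic Western-style diet (36% fat, 46% carbohydrate, 18% protein), TWSD females had testosterone implants together with that diet, and control (C) females had cholesterol implants and standard chow. After 5 to 6 years, 7 T, 6 WSD, 3 TWSD and 10 C females went through ovarian stimulation with human gonadotropins, semen from 4 males was used for in vitro fertilisation, and embryos grew for up to 8 days. The females that could not be stimulated dropped out for health reasons, chiefly endometriosis, so the embryos stand for the females that remained. There were 10 T, 8 WSD, 2 TWSD and 5 C libraries, named by group and number. The labels do not tie a library to a mother, a father or a day, so p-values measure the spread between libraries, which may share parents.

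Total counts ran from 14219054 to 26753850 in T, from 15005205 to 35544542 in WSD, from 20381869 to 26710010 in TWSD and from 15272016 to 27659266 in C. C 8, C 11 and C 12, and T 1 among the T libraries, stood apart in their cell type markers. The summed level of 8 syncytiotrophoblast and placental hormone markers was 4246 CPM in T 1 and 97.7 to 297 CPM in the other T libraries. It was 96.8 to 550 CPM in WSD and 59.1 and 73.1 CPM in TWSD. In controls it was 11858 CPM in C 8, 3940 (C 11) and 8177 (C 12), against 57.3 (C 1) and 231 (C 2). CGA, the alpha subunit of chorionic gonadotropin, was at 1004 CPM in T 1 and at most 4.24 CPM in the other treated libraries, against 3025, 2400 and 1073 CPM in C 8, C 11 and C 12, and 1.23 and 0.325 CPM in C 1 and C 2. Epiblast markers, of which 7 of 8 were matched, summed to 754 to 1722 CPM in T, 464 to 1140 in WSD and 896 and 1027 in TWSD. They summed to 3.55 CPM in C 12, with KLF17 and TDGF1 at 0, and to 26.7 CPM in C 11, against 551 to 1592 CPM in the other 3 controls. Of 8 trophectoderm markers 6 were matched, and all 6 were above 1 CPM in every library. Their sums were 2945 to 12287 CPM in T, 4880 to 19469 in WSD, 4908 and 7213 in TWSD and 1584 to 13211 in C. In C 12 CDX2 was at 1.57 CPM, KRT19 at 4.86, TFAP2C at 32.1, KRT18 at 366, GATA2 at 1352 and GATA3 at 395. In C 11 TFAP2C was at 24.7 CPM, CDX2 at 51.1, KRT19 at 587, KRT18 at 736, GATA2 at 964 and GATA3 at 332. Elsewhere CDX2 was at 29.4 CPM or more and TFAP2C at 215 or more. Markers of cumulus, granulosa and stromal cells (12 genes) summed to 5182 CPM in C 11 and to at most 472 CPM in any other library. In C 11 8 of them were above 1 CPM, led by COL1A1 (1240), COL1A2 (1066), LUM (974), DCN (715) and VCAN (667 CPM). FSHR, PTX3 and INHBA were at 0 in C 11, and the granulosa receptor FSHR was at most 0.273 CPM in any library. Primitive endoderm markers (8 genes) summed to 743 to 4839 CPM in T, 1266 to 4594 in WSD, 855 and 1698 in TWSD and 694 to 2979 in C other than C 11, which had 18239 CPM. Of these 8 markers 4 were above 1 CPM in TWSD 2, with APOA1 highest at 748 CPM, 4 in C 12 and 5 in C 1. FOXA2 was at 0 in TWSD 2, C 1, C 12 and T 6. GATA4 and SOX17 were at 0.451 and 0.193 CPM in TWSD 2, against 55.3 and 99.1 CPM in TWSD 3. They were at 0.117 and 3.58 CPM in C 1 and at 1.36 and 0.104 CPM in C 12. The part of these markers in the results below was not tested.

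EIF2AK3 encodes PERK itself. Its level was 6.24 CPM at the lowest, 16.7 at the median and 29.5 at the highest in T. In WSD these values were 19.3, 21.8 and 31.8 CPM, and in TWSD it was at 73.1 in TWSD 2 and 20.7 in TWSD 3. In controls it was 23.7 CPM in C 1, 15.9 (C 2), 542 (C 8), 55.3 (C 11) and 421 (C 12). Levels in C 1 and C 2 lay inside the range of the treated libraries, while C 8 and C 12 lay above all of them. EIF2AK3 was the only member highest in C 8. In bulk libraries a change in the number of cells of one type and a change in RNA per cell cannot be told apart, which holds for every level given here.

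ATF4, the central transcription factor of the pathway, differed little between treated libraries. Its lowest, median and highest levels were 101, 220 and 351 CPM in T and 106, 199 and 242 CPM in WSD, and it was at 166 and 195 CPM in TWSD 2 and TWSD 3. Controls had 227 CPM in C 1, 148 (C 2), 194 (C 8), 413 (C 11) and 1570 (C 12). Of the 5 controls 3 were thus within the treated range, C 8 among them, although PERK transcripts in C 8 were the highest of any library.

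DDIT3, which encodes the pro-apoptotic factor CHOP, varied most among the controls. It was at 10.1, 19.5 and 67.3 CPM at the lowest, median and highest in T, where T 1 was the highest library. In WSD it was at 9.68, 13.8 and 27.7 CPM, and in TWSD at 41.2 and 24.9 CPM in libraries 2 and 3. The controls had 11.04 CPM in C 1, 21.9 (C 2), 268 (C 8), 302 (C 11) and 8642 (C 12). The highest library was 6.68-fold over the lowest in T, 2.86-fold in WSD and 783-fold in C. In the RefSeq annotation of another macaque build (MMU8v2.0) DDIT3 overlaps 3 other entries, among them MARS1, a tRNA synthetase gene. EIF2AK3 overlaps 1 other entry there and SESN2 overlaps 2. Reads of overlapping genes cannot be told apart without the strand setting. MARS1 ranged from 141 to 399 CPM in T, from 244 to 333 in WSD, 304 and 401 in TWSD and from 203 to 479 in C.

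**Figure D1:**
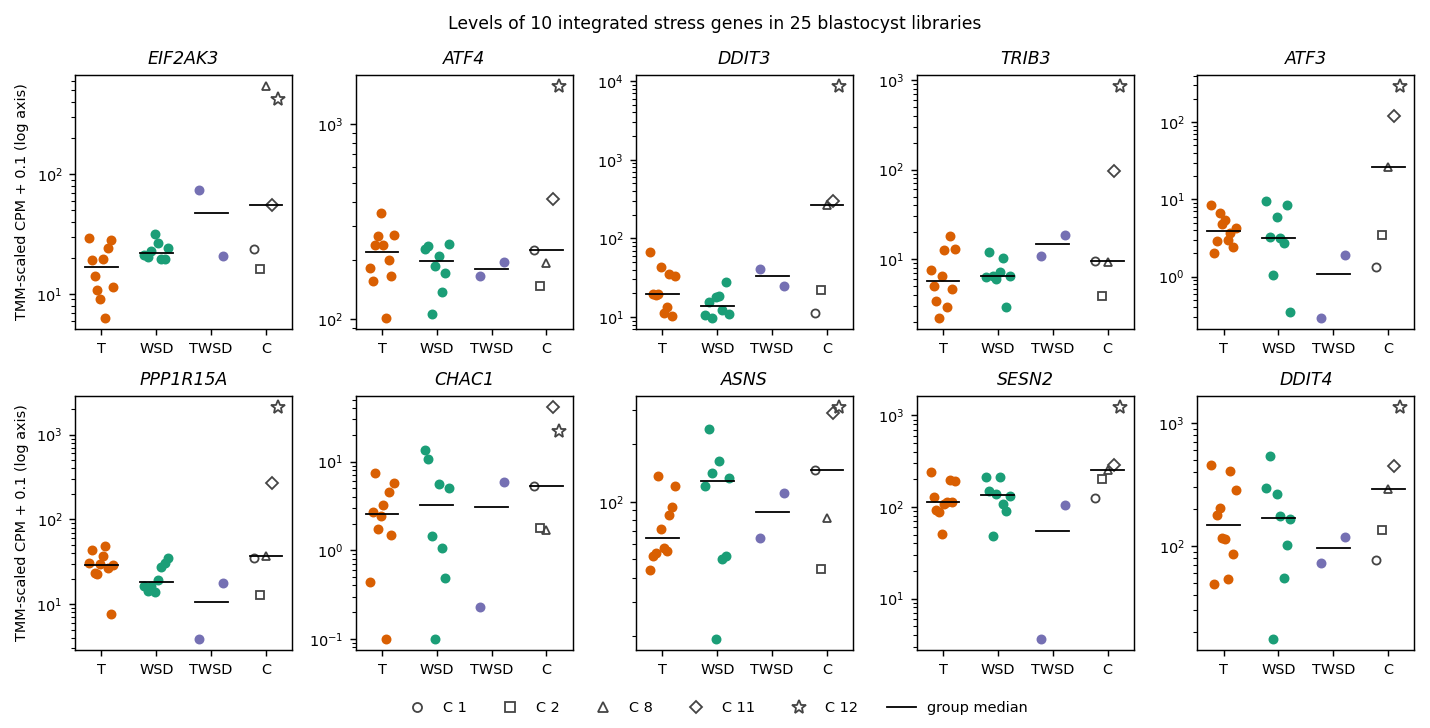
Levels of the 10 members in each library, as TMM-scaled CPM plus 0.1 on a log axis, for the T (10), WSD (8), TWSD (2) and C (5) groups, with 1 point per library and a bar at the group median. Control libraries have a marker each. C 1 and C 2 sit among the treated libraries, and C 12 (star) lies above every treated library in each panel.

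TRIB3 and ATF3 are induced together with or downstream of ATF4 and CHOP. TRIB3, a pseudokinase that restrains AKT and feeds back on CHOP, was at 2.13, 5.65 and 17.9 CPM at the lowest, median and highest in T and at 2.85, 6.33 and 12.0 CPM in WSD. It was at 10.6 and 18.5 CPM in TWSD 2 and TWSD 3, against 9.51 CPM in C 1, 3.84 (C 2), 9.20 (C 8), 96.8 (C 11) and 851 (C 12). C 8 was again inside the treated range. ATF3, a stress-induced repressor of transcription, was at 1.91, 3.85 and 8.41 CPM in T, 0.246, 3.10 and 9.35 CPM in WSD, and 0.193 and 1.80 CPM in TWSD, where TWSD 2 held 3 counts. Controls had 1.23 CPM in C 1, 3.32 (C 2), 26.0 (C 8), 120 (C 11) and 294 (C 12). DDIT3, ATF3 and SESN2 were the members for which C 8, C 11 and C 12 all lay above every treated library.

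PPP1R15A encodes GADD34, the stress-induced subunit that directs a phosphatase to eIF2. It was at 7.57, 29.1 and 48.7 CPM at the lowest, median and highest in T, 13.7, 17.9 and 35.3 CPM in WSD, and 3.801 and 17.5 CPM in TWSD 2 and TWSD 3. Controls had 34.8 CPM in C 1, 12.8 (C 2), 37.3 (C 8), 271 (C 11) and 2109 (C 12). Both C 11 and C 12 lay above every treated library, and the other 3 controls lay within the treated range.

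CHAC1, which breaks down glutathione, and ASNS, which makes asparagine, are direct ATF4 targets tied to amino acid and redox supply. CHAC1 was low in most libraries. It had 0 counts in T 8 and in WSD 6, which at 3 counts allows up to 0.178 and 0.162 CPM (counting error alone), and its median was 2.45 CPM in T and 3.13 CPM in WSD. Its highest treated level was 13.5 CPM in WSD 1. It was at 0.129 CPM (2 counts) in TWSD 2 and 5.82 in TWSD 3, against 5.23 CPM in C 1, 1.69 (C 2), 1.58 (C 8), 41.1 (C 11) and 22.4 (C 12). CHAC1 was the only member highest in C 11.

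ASNS was at 43.9, 64.7 and 137 CPM at the lowest, median and highest in T and at 19.1, 128 and 240 CPM in WSD. It was at 64.4 and 111 CPM in TWSD 2 and TWSD 3, against 146 CPM in C 1, 44.5 (C 2), 81.8 (C 8), 291 (C 11) and 312 (C 12). ASNS had the narrowest spread among controls of all members, 6.99-fold from lowest to highest, and in WSD it ranged wider, 12.6-fold.

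SESN2 and DDIT4 restrain growth signalling through mTORC1 and also respond to p53 and hypoxia. SESN2 was at 50.6, 112 and 238 CPM at the lowest, median and highest in T, with T 1 highest, and at 48.7, 136 and 214 CPM in WSD. In TWSD it was at 3.54 CPM in TWSD 2, the lowest of all 25 libraries, and at 106 CPM in TWSD 3. Controls had 125 CPM in C 1, 200 (C 2), 255 (C 8), 289 (C 11) and 1226 (C 12). DDIT4 was at 49.2, 147 and 456 CPM in T, 17.5, 170 and 541 CPM in WSD and 72.8 and 118 CPM in TWSD. Controls had 76.8 CPM in C 1, 134 (C 2), 292 (C 8), 444 (C 11) and 1345 (C 12), so that C 12 alone lay above the treated libraries.

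**Figure D2:**
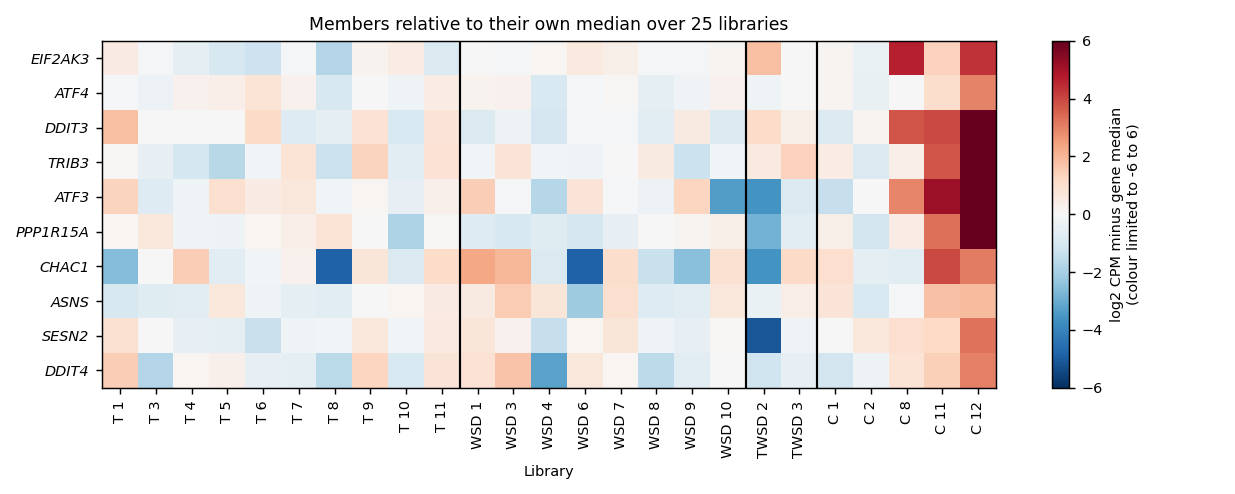
Log2 CPM of each member (rows) minus its own median over the 25 libraries (columns, ordered T, WSD, TWSD, C), with colour limited to 6 log2 units either way. C 12 is high for all 10 members, C 11 for most, C 8 chiefly for EIF2AK3, DDIT3 and ATF3, and TWSD 2 is low for SESN2, CHAC1, ATF3 and PPP1R15A.

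C 8, C 11 and C 12 did not share 1 profile. The median of the 20 treated libraries was 20.4 CPM for EIF2AK3, 18.5 for DDIT3, 198 for ATF4, 6.34 for TRIB3, 24.8 for PPP1R15A and 2.45 for CHAC1. C 8 was 26.6-fold over that median for EIF2AK3 and 14.5-fold for DDIT3, and 0.981-fold for ATF4, 1.45-fold for TRIB3, 1.50-fold for PPP1R15A and 0.645-fold for CHAC1. C 8 was also 8.38-fold over it for ATF3, 2.26-fold for SESN2 and 2.07-fold for DDIT4, and 1.05-fold for ASNS. C 11 was 2.72-fold over the treated median for EIF2AK3 and 2.09-fold for ATF4, but 16.3-fold for DDIT3, 15.3-fold for TRIB3, 16.8-fold for CHAC1 and 38.8-fold for ATF3. C 12 was 467-fold over it for DDIT3, 134-fold for TRIB3, 94.7-fold for ATF3, 84.9-fold for PPP1R15A, 20.7-fold for EIF2AK3 and 3.98-fold for ASNS. C 1 and C 2 ranged from 0.398-fold to 2.14-fold over all members.

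C 1 had 0 members above every T, WSD and TWSD library (7% of all 13934 genes tested), C 2 had 0 (4.65%), C 8 had 4 (9.96%), C 11 had 8 (18.8%) and C 12 had 10 (22.7%). Since the members were proposed for this spread, nothing is read from these counts. The scaling factor of C 12 was 0.708, the lowest of all libraries. That of TWSD 2 was next at 0.763, and the others ran from 0.945 to 1.10.

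The comparison of T with C addresses the effect of high maternal testosterone on the embryo, that of WSD with C the effect of the diet, and that of TWSD with C the effect of both. The median log2 change over the 10 members was -2.97 in T, -2.41 in WSD and -2.60 in TWSD, beside -0.12, -0.12 and -0.38 over all genes tested. All 10 members were lower in each comparison, in all of which the same 5 controls serve. In T the change was -6.09 ± 0.90 (log2, SE) for DDIT3, -4.70 ± 0.79 for TRIB3, -3.62 ± 0.55 for EIF2AK3 and -1.23 ± 0.38 for ATF4. In WSD it was -6.92 ± 1.03 for DDIT3, -4.77 ± 0.86 for TRIB3, -3.19 ± 0.59 for EIF2AK3 and -1.42 ± 0.40 for ATF4. The smallest change of a member was -0.60 ± 0.46, for ASNS in WSD.

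These values rest on 3 libraries. Against C 1 and C 2 alone the median over the members was 0.23 in T, 0.19 in WSD and -0.10 in TWSD. DDIT3 then differed by 0.75 ± 0.61 in T, -0.08 ± 0.58 in WSD and 1.02 ± 0.75 in TWSD, EIF2AK3 by -0.17 ± 0.49, 0.26 ± 0.51 and 1.26 ± 0.65, and TRIB3 by 0.21 ± 0.72, 0.13 ± 0.73 and 1.16 ± 0.93. With C 12 alone left out all 10 members were still lower in each comparison, with medians of -1.78 in T, -1.72 in WSD and -1.88 in TWSD, and DDIT3 at -2.49 ± 0.55 in T and -3.32 ± 0.60 in WSD.

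**Figure D3:**
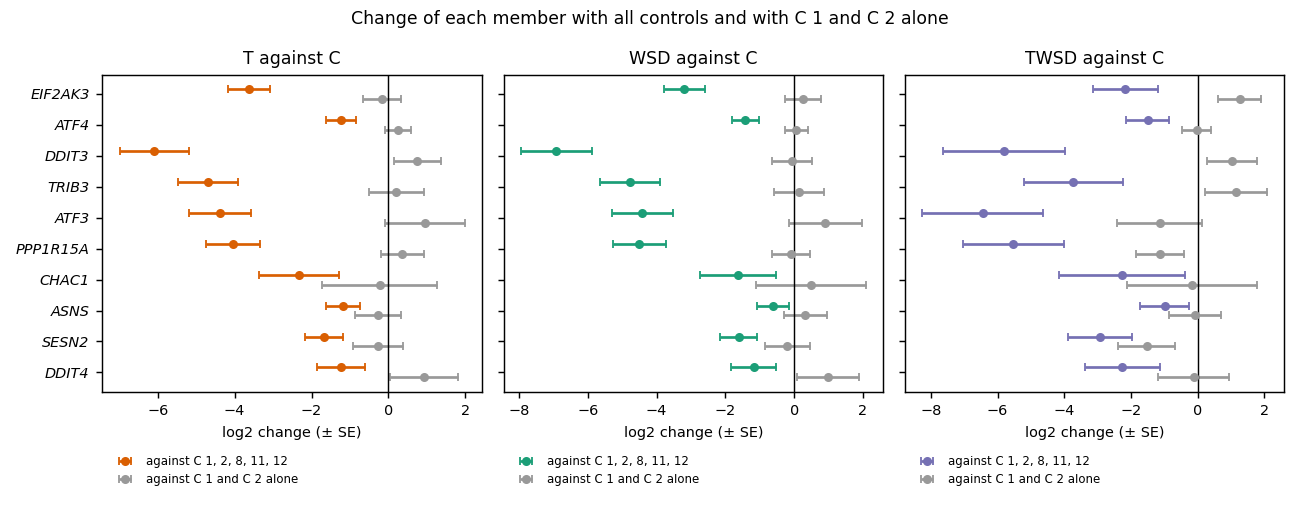
Log2 change of each member in T, WSD and TWSD against C, with SE bars, from all 5 controls (coloured) and from C 1 and C 2 alone (grey). With all controls every change is negative, and with C 1 and C 2 alone the changes lie between -1.53 and 1.26.

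The range of treated libraries lay wholly below that of controls for 0 members in T (0.1% of all genes tested), for 0 in WSD (0.237%) and for 1 in TWSD (6.74%), with 2 TWSD libraries. That member was SESN2, at 106 CPM or less in TWSD, against 125 CPM or more in C.

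Other genes of the pathway were described from a list of 78, of which 76 matched 1 identifier and 75 were tested. Of these 75 genes 12 fell and 0 rose in T against C (3.77% and 0.337% of all genes tested fell and rose), by the quasi-likelihood test of edgeR, with p-values adjusted over all genes by Benjamini-Hochberg. In WSD 12 fell and 0 rose (3.6% and 0.466% of all genes). In TWSD 1 fell and 1 rose (0.337% and 0.861% of all genes). At an unadjusted p under 0.05 there were 21 genes in T, 28 in WSD and 25 in TWSD, beside 2544, 2551 and 3062 of all 13934 genes. The median log2 change over the 75 genes was -0.32 in T, -0.37 in WSD and -0.26 in TWSD. C 8, C 11 and C 12 were singled out with earlier results of these data known. Without them none of the 75 passed in any of the 3 comparisons (1, 5 and 15 at an unadjusted p under 0.05). Of all 13472 genes tested without them 0, 1 and 20 passed (667, 899 and 2023 at an unadjusted p under 0.05), so 0 of 75 is near the background. Without C 12 alone 3 of the 75 passed in T and 2 in WSD (0.29% and 0.37% of all genes). DESeq2 called 14, 15 and 18 of the 75 (8.37%, 9.12% and 14.6% of all genes). Limma voom with quality weights called 0 of the 75, and 0 of all 13934 genes, in each comparison. Several of these genes had been seen to fall in earlier results of these data when the list was made.

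No test compared the roles, and their counts are given as a description. The other eIF2 kinases, the eIF2 subunits and its exchange factor eIF2B (11 genes) had no call in T or WSD, with median log2 changes of 0.12 and 0.10. The same held for 11 enzymes of amino acid and one-carbon metabolism (-0.19 and -0.22) and for 9 amino acid transporters (0.00 and -0.03), and with 3.77% and 3.6% of all genes lower, counts of 0 in lists of this size are near the background. Among stress effectors 6 of 19 were lower in T and 7 of 19 in WSD (medians -1.57 and -1.87), and of 9 partner factors CEBPB and CEBPG were lower in both. The constitutive eIF2 phosphatase subunit PPP1R15B fell in both, alone among 5 genes of that role. Of 11 genes of tRNA charging and export, AARS1, CARS1 and SARS1 fell in T and AARS1 and SARS1 in WSD. CARS1, AARS1 and SARS1 were singled out here after their values were seen.

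The leading genes that fell in T were HERPUD1, which helps to clear misfolded proteins, SQSTM1, an autophagy receptor, the CHOP partner CEBPB, GADD45A, which acts in growth arrest, and BBC3, which encodes the pro-apoptotic protein PUMA. HERPUD1 averaged 58.8 ± 30.6 CPM in T and 1113 ± 1658 CPM in C (SD, n = 10 and 5). Its log2 change was -4.24 ± 0.66 (adjusted p = 0.00239), and without the 3 controls it was 0.19 (adjusted p = 0.998). SQSTM1 was at 289.6 CPM in T 1 and 56.4 to 154 CPM in the other T libraries, against 109 CPM in C 1, 99.5 (C 2), 2021 (C 8), 728 (C 11) and 1091 (C 12). SQSTM1 was highest in C 8, as EIF2AK3 was. In T its change was -2.65 ± 0.45, that of CEBPB -2.98 ± 0.55, that of GADD45A -2.97 ± 0.58 and that of BBC3 -2.84 ± 0.55 (edgeR, adjusted p from 0.00311 to 0.00699). Without C 12 GADD45A was at -0.79 (adjusted p = 0.412) and BBC3 at -1.25 (adjusted p = 0.233).

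In WSD the leading genes that fell were CEBPB, SQSTM1, HERPUD1, PPP1R15B and CEBPG, a dimer partner of ATF4. CEBPB was at 6.24, 8.09 and 11.2 CPM at the lowest, median and highest in WSD, against 19.1 CPM in C 1, 17.3 (C 2), 279 (C 8), 95.6 (C 11) and 312 (C 12). Every WSD library lay below every control, which held for 1 of the 75 genes (0.237% of all genes). Its log2 change was -4.10 ± 0.61 (edgeR, adjusted p = 0.00236) and -1.07 ± 0.62 against C 1 and C 2 alone (adjusted p = 0.806). PPP1R15B changed by -2.71 ± 0.56 and CEBPG by -1.85 ± 0.40 (edgeR, adjusted p of 0.0103 and 0.0131), and without C 12 by -1.10 and -1.16 (adjusted p of 0.234 and 0.131). HERPUD1, at -3.78 ± 0.70 in the fit of all libraries (adjusted p = 0.00616), was at -2.35 without C 12 (adjusted p = 0.076).

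In TWSD EPRS1, a tRNA synthetase for glutamate and proline, rose, at 1530 CPM in TWSD 2 and 667 in TWSD 3, against 243 to 587 CPM in C (log2 change 1.46 ± 0.32, edgeR adjusted p = 0.0217). TNFRSF10B, a death receptor that CHOP induces, fell, at 0.322 and 0.108 CPM in TWSD 2 and TWSD 3, against 4.11 to 35.8 CPM in C (-6.45 ± 1.53, edgeR adjusted p = 0.0324). Without TWSD 2 neither passed, with EPRS1 at 0.76 ± 0.38 and TNFRSF10B at -7.36 ± 2.22 (edgeR, adjusted p of 0.637 and 0.563), where the lone TWSD library is assumed to vary like the other groups.

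**Figure D4:**
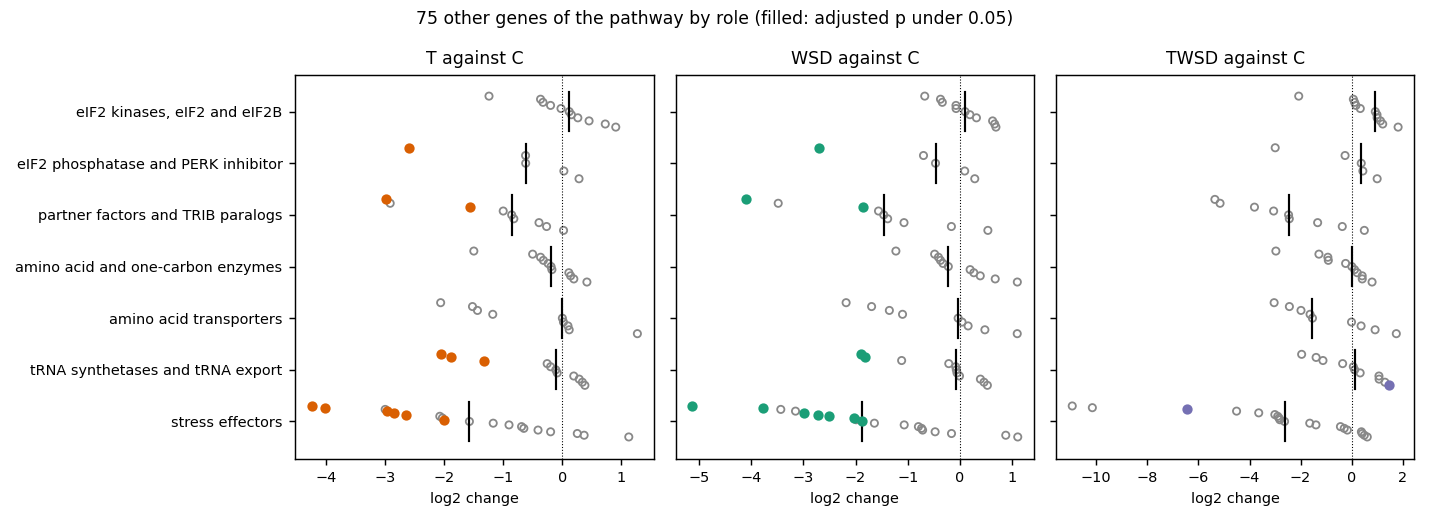
Log2 change of 75 other pathway genes in T, WSD and TWSD against C, by role, with 1 point per gene, filled where adjusted p is under 0.05, and a bar at the median of each role. Filled points on the negative side number 12 in T and 12 in WSD, of which 6 and 7 are stress effectors.

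Comparisons between treated groups were tested, with a spread estimated over all 25 libraries, controls included. T against WSD asks whether the testosterone and the diet groups differ. None of the 10 members passed in T against WSD (0% of all genes passed), and none had an unadjusted p under 0.05 (237 of all 13934 genes did). DESeq2 and limma voom also called 0 members (0.044% and 0% of all genes). The log2 difference was 0.83 ± 0.75 for DDIT3, which averaged 27.2 ± 17.9 CPM in T and 15.3 ± 6.02 CPM in WSD (SD, n = 10 and 8). It was 0.19 ± 0.34 for ATF4, 0.08 ± 0.68 for TRIB3 and -0.43 ± 0.48 for EIF2AK3, which averaged 17.2 ± 8.21 CPM in T and 23.1 ± 4.31 CPM in WSD. It was -0.58 ± 0.39 for ASNS, at 76.8 ± 31.5 CPM in T and 115 ± 72.1 CPM in WSD. The ranges of T and WSD overlapped for all 10 members (0.00718% of all genes had separate ranges). Without C 8, C 11 and C 12 the difference for DDIT3 was 0.83 ± 0.36. In that fit 1 member had an unadjusted p under 0.05 and 0 were called, beside 386 and 0 of all 13472 genes. The SE in the fit of all libraries was 0.34 to 0.93 on the log2 scale, and a p that misses the threshold does not show equal levels.

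TWSD against the mean of T and WSD also gave 0 called members (0.1% of all genes passed). At an unadjusted p under 0.05 there were 0 members, beside 2007 of all 13934 genes. DESeq2 and limma voom called 0 members, and limma voom called 0 of all genes. The share of all genes that passed was 2.58% without C 12, 3.84% without C 8, C 11 and C 12, and 4.95% with DESeq2. Again 0 members were called. Without the 3 controls 2 of 10 members had an unadjusted p under 0.05, near the background of 2719 of all 13472 genes. EIF2AK3 differed by 1.23 ± 0.68, SESN2 by -1.29 ± 0.80 and ATF3 by -2.05 ± 1.33. The differences of EIF2AK3 and SESN2 follow TWSD 2, and that of ATF3 does so in part. Without TWSD 2 EIF2AK3 was at 0.06, SESN2 at -0.33 and ATF3 at -1.22 ± 1.69. Without TWSD 3 SESN2 was at -5.24 and ATF3 at -4.41. With 1 TWSD library left, that library is assumed to vary like the other groups.

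Members varied between treated embryos, and the 45 pairs of members were compared across the 20 T, WSD and TWSD libraries on log2 CPM. The median Pearson r was 0.12, beside 0.01 over all pairs of tested genes. An r above 0.6 was found in 3 of the 45 pairs and in 3.29% of all pairs of tested genes. ATF3 with SESN2 was 1 of these, and it did not pass (r = 0.602, permutation, adjusted p = 0.119). The pairs that passed on Pearson's r, with permutation p-values adjusted by Benjamini-Hochberg over 45 pairs, also numbered 3, 1 of them negative. On Spearman's rho 0 pairs passed, where the smallest adjusted permutation p was 0.0662. CHAC1 and ASNS, both ATF4 targets, ran together across libraries (r = 0.689, permutation p = 0.0005, adjusted 0.0225; rho = 0.579, permutation p = 0.00815). So did ATF4 and DDIT4 (r = 0.651, permutation p = 0.00206, adjusted 0.0309; rho = 0.611, permutation p = 0.00478). EIF2AK3 and PPP1R15A, the kinase and the phosphatase subunit that act on eIF2 in opposite ways, ran opposite (r = -0.690, permutation p = 0.00102, adjusted 0.023; rho = -0.576, permutation p = 0.00882).

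None of the 3 pairs passed once the 2 libraries farthest from the median of the first gene were left out, at r = 0.565 for CHAC1 and ASNS, 0.436 for ATF4 and DDIT4 and -0.347 for EIF2AK3 and PPP1R15A (n = 18). Leaving out the extremes of 1 gene also narrows its range. Within T the r values were 0.326, 0.443 and -0.435 (n = 10, permutation, adjusted p from 0.741 to 0.797). Within WSD they were 0.906, 0.921 and -0.362 (n = 8, exact permutation, adjusted p of 0.0736, 0.0736 and 0.925). DDIT3 was in none of the 3 pairs.

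**Figure D5:**
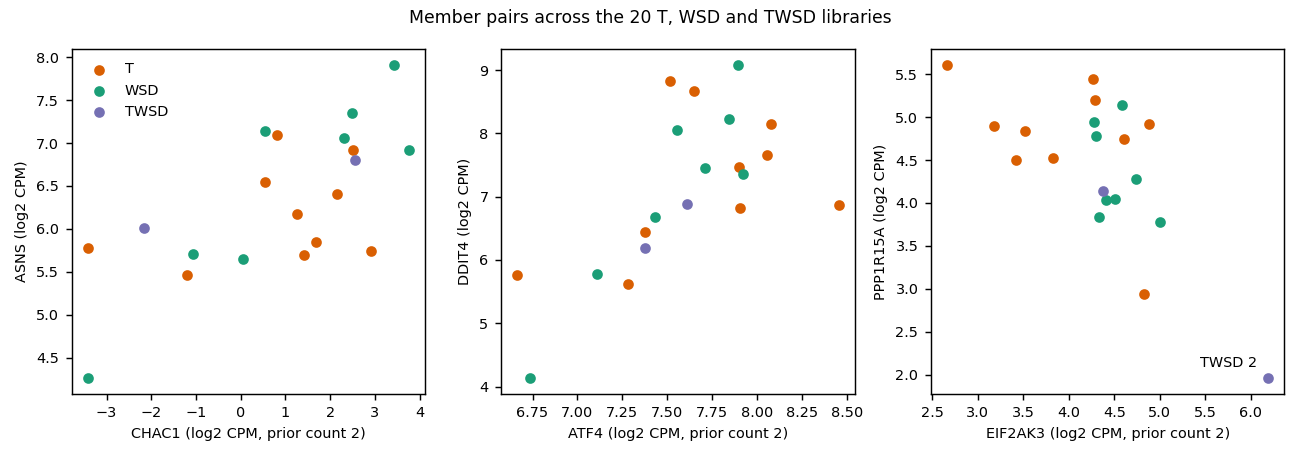
Log2 CPM of 3 member pairs in the 20 treated libraries (10 T, 8 WSD, 2 TWSD), 1 point per library. CHAC1 and ASNS, and ATF4 and DDIT4, run in the same direction (r = 0.689 and 0.651), and EIF2AK3 and PPP1R15A run opposite (r = -0.690), with TWSD 2 at the lower right.

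Genes most like the members over the 25 libraries were found from the mean absolute difference between a gene's log2 CPM, centred on its median, and the median centred profile of the 10 members. That profile stood at 0.63 (C 8), 2.54 (C 11) and 3.79 (C 12), and between -0.89 and 0.54 in the other 22 libraries. Among the nearest genes outside the set were CDK2AP2, SARS1, YPEL5, EIF1, GDF15, DAZAP2 and SECISBP2, with mean differences of 0.339 to 0.382 log2 units, against a median of 1.02 over all genes tested. SARS1 and GDF15, a stress-induced secreted factor, were on the pathway list. GDF15 was at 57.3 CPM at the median of the treated libraries and 124 at their highest, against 60.4 CPM in C 1, 66.2 (C 2), 105 (C 8), 488 (C 11) and 651 (C 12). CDK2AP2 was at 82.1 CPM at the treated median and 117 at the highest, against 78.6, 69.1, 75.1, 190 and 1122 CPM in C 1, C 2, C 8, C 11 and C 12. Among the members ATF4 was nearest to their median profile (0.315) and CHAC1 farthest (1.30).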

How the data were processed

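Total RNA of blastocysts was sequenced in 10 T, 8 WSD, 2 TWSD and 5 C libraries. The deposited table holds raw counts per gene, named by identifier, and symbols were taken from a separate gene name reference. FastQC 0.11.8, Trimmomatic 0.39, STAR 2.7.0 and the genome build Mmul_10 are named in the submitters' processing notes, while for the counting tool and its strand setting the answer is not given in the sources used here. Of 35395 genes, 24173 had a symbol in the gene name reference. A level of 1 CPM or more in 5 or more libraries was required, which 13934 genes met.

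Counts were scaled by TMM and fitted over all 25 libraries with edgeR 4.0.16 in R 4.3.3 (robust quasi-likelihood test, group as the only term, Benjamini-Hochberg adjustment over all genes tested, threshold 0.05). Levels are TMM-scaled CPM, log2 CPM uses a prior count of 2, and ± beside a log2 change is its SE. Members and gene lists were chosen with earlier results of these data known. Beside the members, the text names up to 5 called pathway genes per direction and comparison with the smallest p, and the 8 genes most like the members, of which 1 is not reported here. Alternatives were DESeq2 1.42.0, limma 3.58.1 (voom with quality weights), other scalings, no filter, a replicate block and left-out libraries. No 2 libraries of a group held the same counts (84 pairs). Pair correlations used 100000 permutations, or all of them for 8 libraries. Overlaps with neighbouring genes came from RefSeq names for MMU8v2.0, and no coordinates are printed.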

Additional observations from a re-analysis of the deposited data

Results flagged for a closer look

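Among the 5 controls, C 12 lay far from the others for 6 members on the CPM scale. The gap to the next control made up more than 0.71 of the whole range, narrowly so for DDIT4 (0.7103). The levels in C 12 were 8640 CPM for DDIT3 (next control 302), 2110 CPM for PPP1R15A (next 271) and 851 CPM for TRIB3 (next 96.8). They were 1570 CPM for ATF4 (next 413), 1230 CPM for SESN2 (next 289) and 1340 CPM for DDIT4 (next 444). No member was so marked in T or in WSD, and 6 of 30 groups examined were marked in all. Chance marks about 1 in 20 groups under the rule, but the members were proposed for their wide spread among the controls. The rule was also run on CPM and not on log2 CPM, on which gaps between high values are smaller. That rate therefore does not apply to the members, and the values are a description. On log2 CPM DDIT3 was at 13.1 in C 12, 8.24 in C 11 and 3.48 in C 1. C 12 also had epiblast markers at 3.55 CPM in sum, and their part in these levels was not tested.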

How the results depend on the processing

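All 10 members stayed lower than in C in T, WSD and TWSD with DESeq2 size factors, library totals, no filter and DESeq2's test. The same held with each of 8 libraries left out singly, namely the 5 controls, TWSD 2, TWSD 3 and T 1. The other libraries were not left out. Leaving out 1 of these 8 libraries at a time gave member medians from -3.29 to -1.78 (T), from -2.73 to -1.72 (WSD) and from -4.84 to -1.88 (TWSD), the end nearest 0 being without C 12. It gave 3 to 16 called pathway genes for T (where 0.29% and 6.44% of all genes passed), 2 to 16 for WSD (0.37% and 7.68%) and 0 to 21 for TWSD (0% and 20.1%), and 0 called members in T against WSD and 0 to 1 in TWSD against T and WSD. The median of all genes lay at -0.12 in T, -0.12 in WSD and -0.38 in TWSD with TMM, -0.19, -0.19 and -0.48 with DESeq2 size factors, and 0.02, -0.01 and -0.38 with library totals. In TWSD, 1 pathway gene was called with library totals, 1 with no filter and 18 with DESeq2 (0.69%, 0.29% and 14.6% of all genes). With limma voom 0 pathway genes, and 0 of all 13934 genes, were called in T, WSD and TWSD. At an unadjusted p under 0.05 there were 13, 11 and 3 pathway genes, beside 1241, 1165 and 428 of all 13934 genes. The limma voom member medians were -0.80, -0.77 and -1.05, and the sign turned for ATF4 in T (0.0040), ASNS in WSD (0.17), and TRIB3 (0.49) and ASNS (0.047) in TWSD.

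Without C 8, C 11 and C 12 the member medians were 0.23 in T, 0.19 in WSD and -0.10 in TWSD. In each 0 pathway genes were called (0, 1 and 20 of all 13472 genes). In T the sign turned for ATF4 (0.25), DDIT3 (0.75), TRIB3 (0.21), ATF3 (0.94), PPP1R15A (0.36), DDIT4 (0.92), HERPUD1 (0.19), SQSTM1 (0.35) and CEBPB (0.045). In WSD it turned for EIF2AK3 (0.26), ATF4 (0.060), TRIB3 (0.13), ATF3 (0.91), CHAC1 (0.48), ASNS (0.32), DDIT4 (0.98), HERPUD1 (0.65), PPP1R15B (0.72) and CEBPG (0.0062), and in TWSD for EIF2AK3 (1.26), DDIT3 (1.02) and TRIB3 (1.16). With T 1 left out as well the medians were 0.23, 0.17 and -0.10, again with 0 pathway genes called (0, 1 and 71 of all 13284 genes). The signs then turned in T for ATF4 (0.26), DDIT3 (0.48), TRIB3 (0.20), ATF3 (0.75), PPP1R15A (0.34), DDIT4 (0.67), HERPUD1 (0.0065) and SQSTM1 (0.12). They turned in WSD for EIF2AK3 (0.24), ATF4 (0.038), TRIB3 (0.11), ATF3 (0.88), CHAC1 (0.46), ASNS (0.30), DDIT4 (0.96), HERPUD1 (0.63) and PPP1R15B (0.70), and in TWSD for EIF2AK3 (1.26), DDIT3 (1.02) and TRIB3 (1.16). The cause was not tested.

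Same-numbered libraries of different groups deviated together weakly or not at all (16 pairs, r from -0.376 to 0.222, and 1 of 23 libraries correlated best with its own number). These correlations cannot show whether such libraries share a parent or a day, which the labels do not give. With a replicate block 0 genes and 0 pathway genes were called in each comparison, the member medians were -1.07 in T, -1.19 in WSD and -1.001 in TWSD, and TRIB3 in TWSD was at 0.79. Of the 45 member pairs 0 passed in T alone, 0 in WSD alone and 0 without the 2 libraries farthest from the median. With 2 TWSD libraries and a biological coefficient of variation of 0.900 small differences were not detectable, and CHAC1 and ATF3 rested on few counts in several libraries.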
